A study of Homo sapiens with 6 samples.

Results

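Smooth muscle contractile genes were followed in cardiomyocytes made from H9, an established line of human embryonic stem cells, by mRNA sequencing of 3 ADPRHL1 knockout (KO) and 3 wild-type (WT) samples taken within 3 days of re-seeding. Both groups share the line and the cardiomyocyte differentiation, and the labels say neither how the knockout was made nor whether a group is more than 1 clone or culture. The p-values therefore carry no more than the sample-to-sample spread seen here, and that spread may be technical. The group was chosen by name as 10 of the 28092 genes in the table: the actins ACTA2 and ACTG2, the actin-binding genes TAGLN, CNN1, CNN2, CALD1, LMOD1, SYNPO2 and SMTN, and the myosin heavy chain MYH11. All 10 were found once by symbol, and all 10 passed the filter on low counts, beside 19558 genes tested in all.

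Smooth muscle cells contract when myosin pulls on actin filaments, and a set of actin-binding proteins (calponin, caldesmon, transgelin, leiomodin) shapes those filaments and tunes their use. Many of these genes are activated by serum response factor (SRF), which binds a short DNA element, the CArG box, and works together with the coactivators myocardin or MRTF. Several of them are also active in the early heart, where cardiomyocytes carry ACTA2 and TAGLN before striated actin comes to dominate.

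The CArG box is the DNA feature most tied to this gene group, so the stretches that hold it are shown first, from RefSeq promoters on GRCh38.p14, which gave 17 promoters for 8 of the 10 genes. Each run below is the 250 bases before a transcription start, 5′ to 3′ on the gene's own strand. Capitals mark a CArG box, searched as a match to the consensus or with at most 1 G or C in its 6-base core. The ACTA2 stretch lies on the minus strand at chr10:88952774-88953023, that of ACTG2 on the plus strand at chr2:73892758-73893007, that of CNN2 on the plus strand at chr19:1026358-1026607 and that of SMTN on the plus strand at chr22:31084746-31084995.
ACTA2: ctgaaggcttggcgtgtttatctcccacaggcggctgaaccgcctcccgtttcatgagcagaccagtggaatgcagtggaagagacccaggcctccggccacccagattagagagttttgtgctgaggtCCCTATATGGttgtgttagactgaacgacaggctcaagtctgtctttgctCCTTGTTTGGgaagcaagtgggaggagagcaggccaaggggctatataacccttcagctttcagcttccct
ACTG2: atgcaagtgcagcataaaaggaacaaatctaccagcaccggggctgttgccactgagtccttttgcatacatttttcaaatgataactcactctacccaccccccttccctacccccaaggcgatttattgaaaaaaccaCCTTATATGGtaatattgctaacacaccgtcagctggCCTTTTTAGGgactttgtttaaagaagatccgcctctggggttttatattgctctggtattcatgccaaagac
CNN2: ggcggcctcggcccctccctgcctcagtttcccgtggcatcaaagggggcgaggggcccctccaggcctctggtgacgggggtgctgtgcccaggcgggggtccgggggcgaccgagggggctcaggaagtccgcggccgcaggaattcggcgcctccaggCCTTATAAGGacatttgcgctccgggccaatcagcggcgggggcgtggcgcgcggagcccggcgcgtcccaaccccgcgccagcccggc
SMTN: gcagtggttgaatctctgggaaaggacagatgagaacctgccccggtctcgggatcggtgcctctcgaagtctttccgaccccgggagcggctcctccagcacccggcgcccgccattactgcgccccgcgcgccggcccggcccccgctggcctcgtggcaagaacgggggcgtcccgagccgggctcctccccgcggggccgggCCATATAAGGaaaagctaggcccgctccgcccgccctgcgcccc

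ACTA2 held 2 boxes, starting at -121 and -71 from its downstream start, each with 1 G or C in the core. The other 3 stretches matched the consensus, ACTG2 at -110 and -73, CNN2 at -89 and SMTN at -44. The consensus was present in 3 of the 17 promoters (17.6%), against 1.16% of all 35116 promoters searched. The looser form was present in 6 of the 17 (35.3%), adding 1 promoter each of CALD1 and SYNPO2, against 7.04% of all promoters. The MCAT element CATTCC, bound by TEAD factors and searched on either strand, was present in 6 of the 17 (35.3%), against 11.9%. CNN1 and LMOD1 held no CArG box of either form in these windows, which says only that these letters are not there. The 4 genes printed above did not move together: in KO samples ACTA2 and CNN2 fell, SMTN rose and ACTG2 did not pass the test.

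Changes are log2 fold changes, KO minus WT, tested by the quasi-likelihood method of edgeR, with p-values adjusted by Benjamini-Hochberg over all genes tested and a threshold of 0.05. Levels between samples are TMM-scaled CPM (a count divided by the library total and scaled for composition), and levels between genes are the deposited per-length values, read as FPKM. Gene positions are those of RefSeq on GRCh38.p14. Total counts were 21179650 to 21405718 per sample. The targeted gene stood at 6.38, 5.80 and 7.58 CPM in KO samples, against 83.7, 79.6 and 79.4 CPM in WT samples, lower in every KO sample (-3.62, SE 0.0818, adjusted p = 6.75e-12, edgeR).

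Of the 10 genes, 8 fell in KO samples, 1 rose and 1 did not pass. Over all genes tested 57.0% were called, 28.6% lower and 28.4% higher, so a call by itself is common in these data. The median change of the 10 genes was -0.52 on the log2 scale, against 0.0011 over all genes tested. LMOD1, MYH11 and SYNPO2 fell by more than 2-fold, or 3 of 10, where 6.02% of all genes tested did so. In 9 of the 10 genes the KO and WT samples did not overlap, against 64.5% of all genes tested. In bulk RNA, fewer cells of a type and less RNA per cell cannot be told apart, which holds for every level given here.

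**Figure D1:**
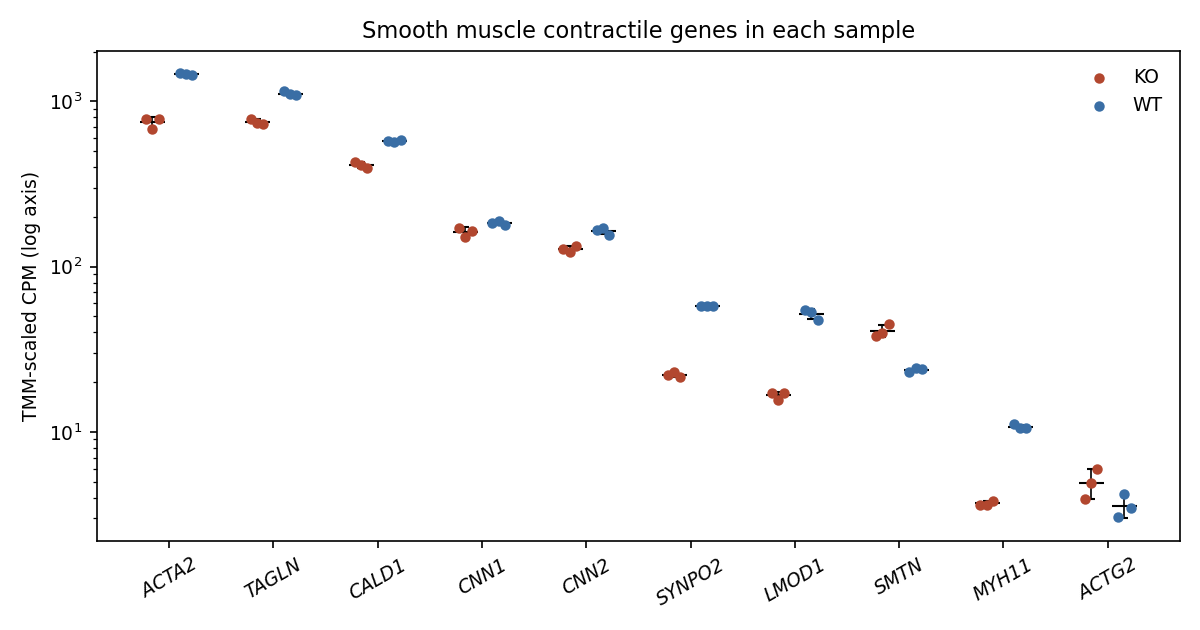
Level of each smooth muscle contractile gene in each sample, as TMM-scaled CPM on a log axis; points are samples, horizontal marks are means and bars are SD (n = 3 per group), KO left of WT. KO samples sit below WT samples for 8 genes, above them for SMTN (38.2 to 44.8 against 23.0 to 24.3 CPM), and overlap them for ACTG2.

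ACTA2 (Entrez 59; chromosome 10, 88935074 to 88991337, minus strand) encodes the alpha actin of vascular smooth muscle and was the most abundant of the group per length. It stood at 782, 681 and 785 CPM in KO samples, against 1477, 1473 and 1437 CPM in WT samples. All KO samples lay below all WT samples, with KO replicate 2 the lowest. The mean was 749 ± 59.1 CPM in KO samples and 1462 ± 22.2 CPM in WT samples (SD, n = 3 each), which is -0.96 on the log2 scale (SE 0.0585, adjusted p = 3.03e-08, edgeR). Of the genes tested, 18.7% changed by more in either direction.

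ACTG2 (Entrez 72; chromosome 2, 73893008 to 73919865, plus strand) encodes the gamma actin of visceral smooth muscle and was near the bottom of the group. It stood at 3.92, 4.89 and 5.96 CPM in KO samples, against 3.07, 4.19 and 3.45 CPM in WT samples, and the groups overlapped. The difference of 0.46 on the log2 scale (SE 0.191) did not pass (adjusted p = 0.0549, edgeR). This result sat at the threshold, and it passed in 8 of the 16 other fits, including the fits without KO replicate 1 (0.599, adjusted p = 0.0224) and without WT replicate 2 (0.588, adjusted p = 0.0395).

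TAGLN (Entrez 6876; chromosome 11, 117199294 to 117207465, plus strand) encodes transgelin, also called SM22, an actin-bundling protein and an early marker of smooth muscle. It stood at 781, 738 and 732 CPM in KO samples, against 1149, 1103 and 1087 CPM in WT samples, with no overlap. The difference was -0.57 (SE 0.0482, adjusted p = 7.23e-07, edgeR), a smaller fall than that of ACTA2. TAGLN shares 446 exonic bases (11.4% of its exons in GENCODE) with PCSK7 on the other strand, and without stated strand their reads cannot be told apart there. PCSK7 fell on counts (-0.22), not on FPKM, and was far lower than TAGLN, at 70.6 ± 2.48 CPM in KO samples and 82.1 ± 5.97 CPM in WT samples (SD, n = 3 each).

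The calponin genes had the smallest differences of the 10. CNN1 (Entrez 1264; chromosome 19, 11538851 to 11550323), the basic calponin of differentiated smooth muscle, stood at 172, 151 and 165 CPM in KO samples, against 183, 189 and 178 CPM in WT samples. The KO samples lay just below the WT samples, and the difference was -0.17 (SE 0.0555, adjusted p = 0.0176, edgeR). The call for CNN1 ended without WT replicate 2 (adjusted p = 0.0663), and 74.8% of the genes tested changed by more. CNN2 (Entrez 1265; chromosome 19, 1026608 to 1039065), a calponin found in many cell types beyond smooth muscle, stood at 127, 122 and 134 CPM in KO samples, against 166, 170.4 and 156 CPM in WT samples. Its difference was -0.37 (SE 0.0529, adjusted p = 8.08e-05, edgeR), with no overlap between groups.

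CALD1 (Entrez 800; chromosome 7, 134711499 to 134970729) encodes caldesmon, which binds actin and myosin and is made in a long form in smooth muscle and a short form elsewhere. It stood at 432, 414 and 394 CPM in KO samples, against 574, 567 and 586 CPM in WT samples, with no overlap. The difference was -0.48 (SE 0.0487, adjusted p = 3.94e-06, edgeR). These counts are per gene and do not separate the long and short forms.

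The 3 deepest falls were in genes of lower level. LMOD1 (Entrez 25802; chromosome 1, 201896456 to 201946548), a leiomodin that starts new actin filaments in smooth muscle, stood at 17.2, 15.7 and 17.1 CPM in KO samples, against 54.3, 53.4 and 47.6 CPM in WT samples. The groups were far apart, with a difference of -1.63 on the log2 scale (SE 0.0729, adjusted p = 1.65e-09, edgeR), and 7.02% of the genes tested changed by more. SYNPO2 (Entrez 171024; chromosome 4, 118850681 to 119061247), also called myopodin, is an actin-bundling protein of smooth muscle and of the striated Z-disc. It stood at 22.2, 22.9 and 21.4 CPM in KO samples, against 57.7, 57.8 and 57.4 CPM in WT samples, which is -1.38 on the log2 scale (SE 0.0567, adjusted p = 8.34e-10, edgeR).

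MYH11 (Entrez 4629; chromosome 16, 15703135 to 15857028, minus strand) encodes the smooth muscle myosin heavy chain and is regarded as the most restricted marker of that cell type. It was the lowest of the 10 genes per length in both groups. It stood at 3.62, 3.63 and 3.84 CPM (77 to 82 counts) in KO samples, against 11.1, 10.6 and 10.5 CPM (222 to 234 counts) in WT samples. The groups did not overlap and the difference was -1.53 (SE 0.119, adjusted p = 3.15e-07, edgeR). On the scale of log2(FPKM + 1) the same change was -0.70, since the gene lies near the pseudocount. MYH11 shares 765 exonic bases (4.8%) with NDE1 on the other strand, and NDE1 was higher in KO samples, at 13.2 ± 0.174 CPM, against 8.99 ± 1.56 CPM in WT samples (SD, n = 3 each).

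SMTN (Entrez 6525; chromosome 22, 31064118 to 31104624) encodes smoothelin, a cytoskeletal protein that binds stress fibres in contractile smooth muscle, and was the member that rose. It stood at 38.2, 39.8 and 44.8 CPM in KO samples, against 23.0, 24.3 and 23.9 CPM in WT samples. All KO samples lay above all WT samples, with a difference of 0.79 on the log2 scale (SE 0.0717, adjusted p = 1.41e-06, edgeR).

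Per length, the order of the genes differed between the groups. In KO samples ACTA2 led at 524 ± 34.0 FPKM, followed by TAGLN at 193 ± 6.78, CNN1 at 104 ± 5.81, CALD1 at 93.0 ± 4.64, CNN2 at 51.8 ± 1.72 and SMTN at 11.7 ± 1.10 FPKM. LMOD1 at 4.14 ± 0.170, ACTG2 at 3.82 ± 0.769 and SYNPO2 at 3.01 ± 0.187 FPKM came next, and ACTG2 overlapped both of its neighbours. MYH11 was last at 0.590 ± 0.0400 FPKM (SD, n = 3).

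In WT samples ACTA2 led at 1009 ± 15.1 FPKM, followed by TAGLN at 284 ± 8.19, CALD1 at 124 ± 2.35, CNN1 at 115 ± 3.73, CNN2 at 66.0 ± 2.97 and LMOD1 at 12.7 ± 0.893 FPKM. SYNPO2 at 7.03 ± 0.185 and SMTN at 6.61 ± 0.420 FPKM overlapped, and ACTG2 at 2.72 ± 0.408 and MYH11 at 1.58 ± 0.124 FPKM closed the order (SD, n = 3). SMTN stood above LMOD1 and SYNPO2 in KO samples and below LMOD1 in WT samples. CNN1 and CALD1 also changed places, by small margins that did not overlap in either group.

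Summed over the 10 genes, the level was 989 ± 40.5 FPKM in KO samples and 1628 ± 26.0 FPKM in WT samples, so that KO samples held 60.7% of the WT level. ACTA2 made up 52.9 ± 1.5% of that sum in KO samples and 62.0 ± 0.0773% in WT samples. CNN1 made up 10.5 ± 0.178% in KO samples and 7.06 ± 0.160% in WT samples, and SMTN 1.18 ± 0.132% in KO samples and 0.406 ± 0.0274% in WT samples (SD, n = 3 each). For all 10 genes the shares did not overlap between the groups, and each exact permutation test gave p = 0.10 (0.10 after adjustment over the 10), the smallest that 3 against 3 allows. Shares are parts of 1 sum led by ACTA2, so a share can rise while its gene falls. TAGLN, CNN1, CNN2 and CALD1 fell in level, yet their shares were higher in KO samples by 2.16, 3.46, 1.18 and 1.8 percentage points.

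The deposited counts and FPKM together give the transcript length each value assumed, a readout that the count test does not use. For TAGLN it was 3903 ± 2.17 bases in KO samples and 3893 ± 0.998 bases in WT samples, beyond the longest GENCODE coding transcript of the gene (2166 bases) and close to its 3917 merged exonic bases. A longer assumed length lowers the FPKM of TAGLN, in both groups alike, and with it the share of TAGLN in the sums. ACTA2, CNN2, CALD1, LMOD1 and SMTN also implied more than their longest coding transcripts in both groups, by smaller margins. SYNPO2 implied 7422 ± 327 bases in KO samples and 8131 ± 189 bases in WT samples, a difference of -8.72% without overlap. CALD1 implied 4477 ± 9.36 bases in KO samples and 4608 ± 24.0 bases in WT samples, a difference of -2.85% without overlap (SD, n = 3 each). Both gave p = 0.10 in an exact permutation test (0.167 after adjustment over the 10 genes), the smallest possible. Among 12043 genes with at least 100 counts in every sample, 17.2% shifted by more than SYNPO2 and 43.4% by more than CALD1. For ACTG2, MYH11, SMTN and LMOD1 the implied lengths of KO and WT samples overlapped. ACTA2, CNN1, CNN2 and TAGLN shifted by under 1%, without overlap, and relative to the median gene the sign for CNN1 turned (0.0726%).

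Near-identical copies could blur such counts, and the overlap in sequence was small. Of the 50-base windows in the longest coding transcript of each gene, none of ACTA2, TAGLN, CNN1, CALD1, LMOD1, SYNPO2 or SMTN occurred in a transcript of another gene. MYH11 shared 51 of 6837 windows (0.7%), mostly with MYH9, CNN2 shared 4 of 2145 and ACTG2 shared 2 of 2015. ACTA2 shares 380 exonic bases (12.8%) with FAS on the other strand, and FAS stood at 11.8 ± 0.751 CPM in KO samples and 7.19 ± 0.454 CPM in WT samples (SD, n = 3 each), far below ACTA2. Other transcripts annotated on the opposite strand of ACTA2 (ACTA2-AS1, 17.3% of its exonic bases), LMOD1 (13.5%), CNN2 (9.3%), SMTN (3.5%) and MYH11 (1.9% and 1.5%) could likewise share reads, as the strand of the libraries is not stated.

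The smooth muscle genes other than CALD1 were then set beside chosen relatives from their protein families, which for MYH11 were the non-muscle myosins and not the striated ones. Of 14 relatives tested, 7 fell, 6 rose and 1 did not pass, with a median of -0.38. Over all genes tested 28.6% fell and 28.4% rose. The striated actin genes fell, ACTC1, the main cardiac actin (-1.05), and ACTA1, the skeletal actin (-1.55). The cytoplasmic actin genes rose, ACTB by 0.38 and ACTG1 by 0.98. ACTC1 averaged 2339.9 ± 76.9 CPM in KO samples and 4858 ± 65.7 CPM in WT samples, and ACTG1 averaged 3190.4 ± 209 CPM in KO samples and 1623 ± 65.3 CPM in WT samples (SD, n = 3 each). ACTA2 changed about as much as ACTC1, and opposite to the cytoplasmic pair.

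TAGLN2, the transgelin of non-muscle cells, rose by 1.36, at 500.3 ± 52.3 CPM in KO samples and 195 ± 8.66 CPM in WT samples, while TAGLN fell. TAGLN3, a neuronal transgelin, rose too but from few reads, at 1.73 ± 0.229 CPM in KO samples and 0.157 ± 0.0275 CPM in WT samples (SD, n = 3 each). CNN3, the acidic calponin, averaged 228 ± 7.25 CPM in KO samples and 221 ± 8.94 CPM in WT samples and did not pass (0.048, adjusted p = 0.428, edgeR).

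Among the myosins, MYH9 rose by 0.30, and the non-muscle myosins MYH10 (-0.96) and MYH14 (-0.80) fell beside MYH11. SYNPO, the founding synaptopodin, rose by 0.33, while SYNPO2L, its heart and skeletal muscle relative, fell (-2.0) beside SYNPO2. LMOD2, the cardiac leiomodin, fell (-2.04), at 1.81 ± 0.367 CPM in KO samples and 7.41 ± 0.569 CPM in WT samples (SD, n = 3 each). SMTNL2 fell (-1.09) as SMTN rose. LMOD3 and SMTNL1 held under 3 counts in every sample and were not tested.

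**Figure D2:**
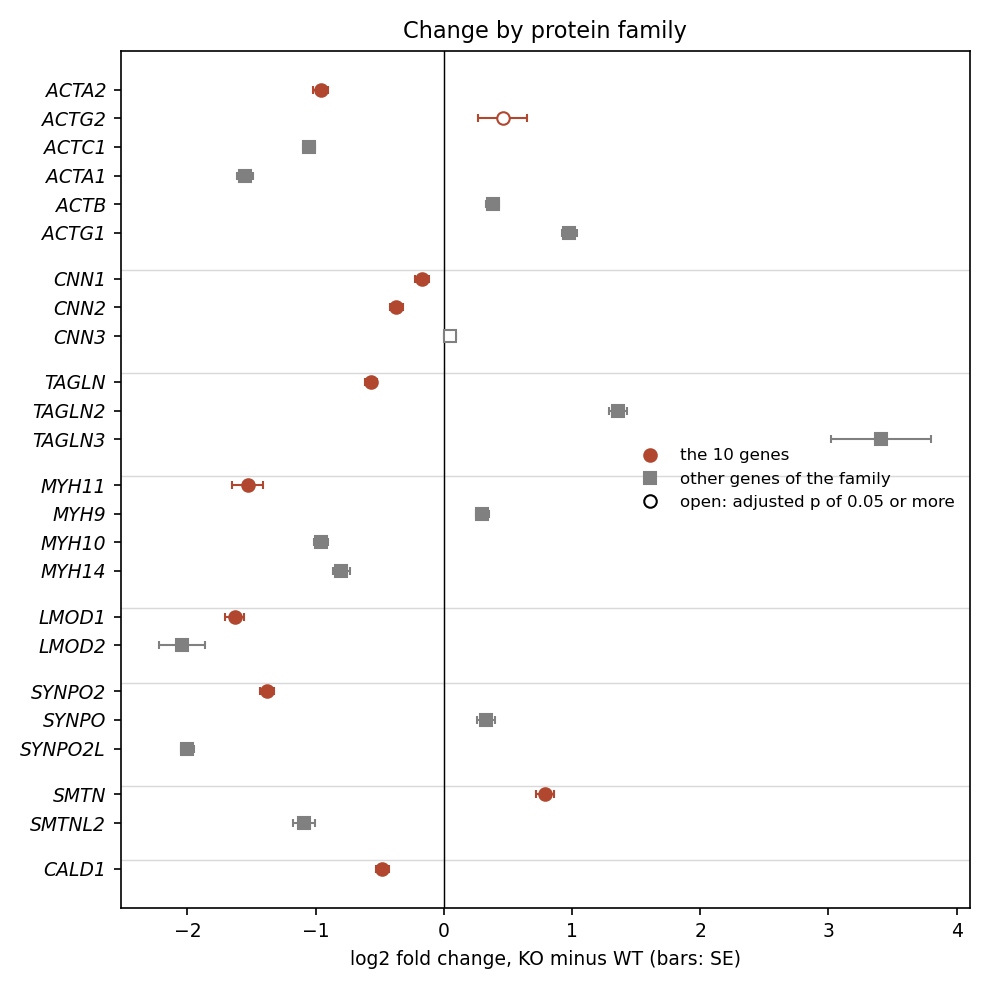
Log2 fold change, KO minus WT, of the 10 smooth muscle contractile genes (circles) and their tested relatives (squares), grouped by protein family; bars are SE and open symbols did not pass. ACTA2 falls with ACTC1 and ACTA1 while ACTB and ACTG1 rise, and TAGLN falls while TAGLN2 rises by 1.36.

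Within families, the share of summed FPKM held by the smooth muscle gene moved for some and not for others. These shares were chosen for description after the values were seen and carry no test. TAGLN made up 33.1 ± 2.55% of transgelin FPKM in KO samples and 65.4 ± 1.62% in WT samples, and TAGLN2 made up 66.6 ± 2.52% in KO samples and 34.5 ± 1.63% in WT samples. These transgelin shares rest on the long length assumed for TAGLN (3903 bases in KO samples), so which gene leads in KO samples is not settled. In CPM, which takes no account of length, TAGLN averaged 750.2 and TAGLN2 500.3 in KO samples. In WT samples these were 1113 and 195 CPM. ACTA2 made up 6.95 ± 0.236% of the 6 actin genes in KO samples and 12.6 ± 0.152% in WT samples. The summed actin level was 7536 ± 266 FPKM in KO samples and 8024 ± 157 FPKM in WT samples, so the family as a whole differed far less than its parts. SMTN made up 53.7 ± 2.10% of the smoothelin family in KO samples and 23.7 ± 2.48% in WT samples. CNN1 held 39.4 ± 1.51% of calponin FPKM in KO samples and 40.4 ± 0.928% in WT samples, within the spread of the samples. MYH11 stayed under 1% of the summed FPKM of these 4 myosin genes in every sample (SD, n = 3 each).

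**Figure D3:**
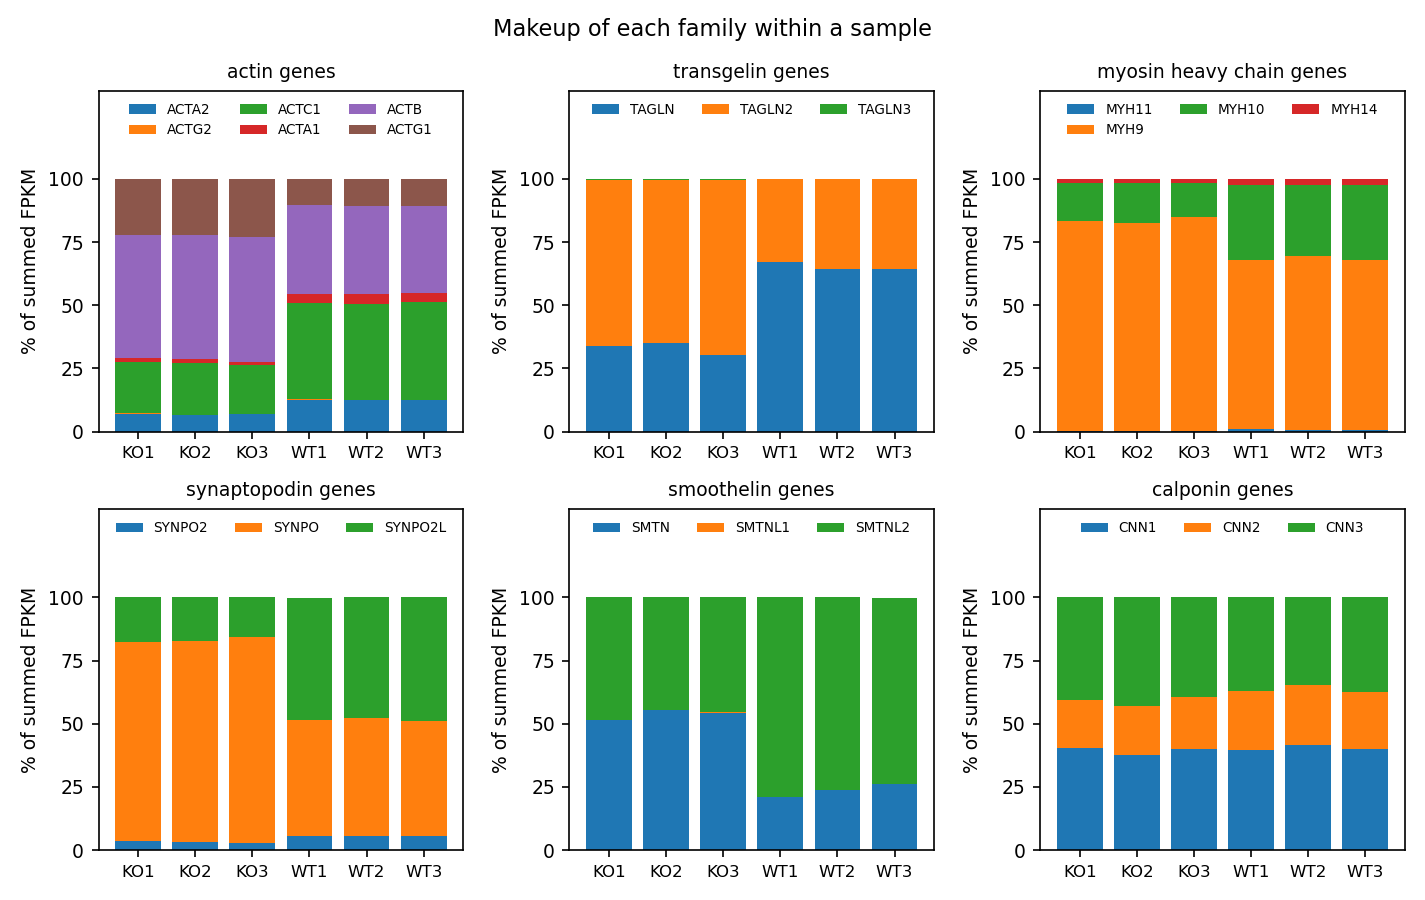
Percent of summed FPKM held by each gene of 6 protein families in each sample, KO samples left of WT samples. The TAGLN part is 30.2 to 35% in KO samples and 64.5 to 67.3% in WT samples, while the CNN1 part overlaps between groups.

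Other genes of the smooth muscle contractile apparatus and cytoskeleton moved both ways. Of 32 such genes tested, 16 fell, 11 rose and 5 did not pass, with a median of -0.07. That is 84.4% called, where 57.0% of all genes tested were, 28.6% lower and 28.4% higher. Among the deepest falls were PGM5, a phosphoglucomutase relative at muscle adhesions (-1.49), and NEXN, an actin-binding protein of the Z-disc (-1.31). The largest rises were the integrin gene ITGA8 (1.99), the intermediate filament gene VIM (1.19) and KCNMA1, the pore of the large calcium-activated potassium channel (1.01). Chosen after their values were seen, MYL9, the regulatory light chain used by smooth muscle myosin, fell (-0.96), at 950.5 ± 51.2 CPM in KO samples and 1849.9 ± 68.7 CPM in WT samples. MYLK, the kinase that phosphorylates that light chain, rose by 0.23, at 38.9 ± 0.731 CPM in KO samples and 33.1 ± 1.70 CPM in WT samples (SD, n = 3 each).

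Among 25 regulators of the smooth muscle programme, 11 rose, 7 fell and 7 did not pass, with a median of 0.06. That is 72% called, against 57.0% of all genes tested, of which 28.4% were higher and 28.6% lower. SRF averaged 127 ± 5.39 CPM in KO samples and 129.9 ± 0.691 CPM in WT samples and did not pass (adjusted p = 0.602, edgeR). MYOCD, the myocardin coactivator of heart and smooth muscle, fell to 87.1 ± 6.94 CPM in KO samples, against 296 ± 4.2 CPM in WT samples (-1.76, SE 0.0582, adjusted p = 1.27e-10, edgeR). Its relatives moved apart, MRTFA rising by 0.35 and MRTFB falling (-0.85). KLF4, a factor known to repress smooth muscle genes, rose by 1.21, at 34.2 ± 1.76 CPM in KO samples and 14.8 ± 0.230 CPM in WT samples (SD, n = 3 each). The ligand genes TGFB1 (1.52) and JAG1 (1.32) rose by more than KLF4, and 6 of the 25 rose by at least 2-fold in all. Of all genes tested, 16.2% were called with at least a 2-fold change in either direction. That share is made up of 6.02% with at least a 2-fold fall and the rest with at least a 2-fold rise. CSRP2, a LIM protein of smooth muscle, fell (-1.45), and with MYOCD it was 1 of 2 regulators at least 2-fold lower.

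Markers of cell types changed as well, in directions that differed between cell types, and their part in the changes above was not tested. The counts below stand beside 57.0% called over all genes tested, 28.6% lower and 28.4% higher. All 15 cardiomyocyte markers fell, led by the myosin genes MYH7 (-2.64) and MYH6 (-2.14) and MYBPC3 (-2.29), with a median of -1.70, and their summed level was 2837 to 3114 FPKM in KO samples and 8898 to 9221 FPKM in WT samples. Of 13 fibroblast markers 9 rose (PRRX1 1.99, DCN 1.94 and FAP 1.37 the most), 3 fell (POSTN -1.83, TCF21 -1.28 and COL3A1 -0.25) and 1 did not pass, with sums of 3129.9 to 3612 FPKM in KO samples and 2232 to 2271 FPKM in WT samples. Of 12 mural markers (smooth muscle and pericyte) tested outside the 10 genes, 5 rose, 5 fell and 2 did not pass. MYOCD, NOTCH3, ITGA8 and KCNMB1 among them were also counted in the regulator or contractile lists above. The mural sums of 191 to 208 FPKM in KO samples and 187 to 194 FPKM in WT samples overlapped. In CPM the mural sums were 1167 to 1319 in KO samples and 1034 to 1042 in WT samples and did not overlap. PDGFRB (2.14), AOC3 (2.04) and ITGA8 (1.99) rose, and ABCC9 (-2.70), KCNJ8 (-1.77) and MYOCD (-1.76) fell. ABCC9 and KCNJ8 were low, at 0.325 and 1.01 CPM in KO samples, against 2.15 and 3.44 CPM in WT samples. Chosen after their values were seen, the largest parts of the FPKM sums moved apart. CSPG4 led in KO samples (63.0 FPKM, against 17.4 in WT samples) and RGS5 led in WT samples (78.5 FPKM, against 39.7 in KO samples). HIGD1B, a pericyte marker, held under 3 counts in every sample, and NDUFA4L2 was not analysed here. Of 11 endothelial markers tested 9 rose and 1 fell, while CLDN5 held under 3 counts in every sample, with sums of 92.4 to 99.6 FPKM in KO samples and 50.7 to 52.5 FPKM in WT samples. Of 8 epicardial markers 4 rose and 2 fell, with sums of 15.7 to 18.7 FPKM in KO samples and 22.5 to 25 FPKM in WT samples. Chosen after its values were seen, LRRN4 (-2.36) held 2.51 to 3.06 FPKM in KO samples, against 11.8 to 13.7 FPKM in WT samples. The lower epicardial sums in KO samples rest on LRRN4 and do not show a fall across the list.

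**Figure D4:**
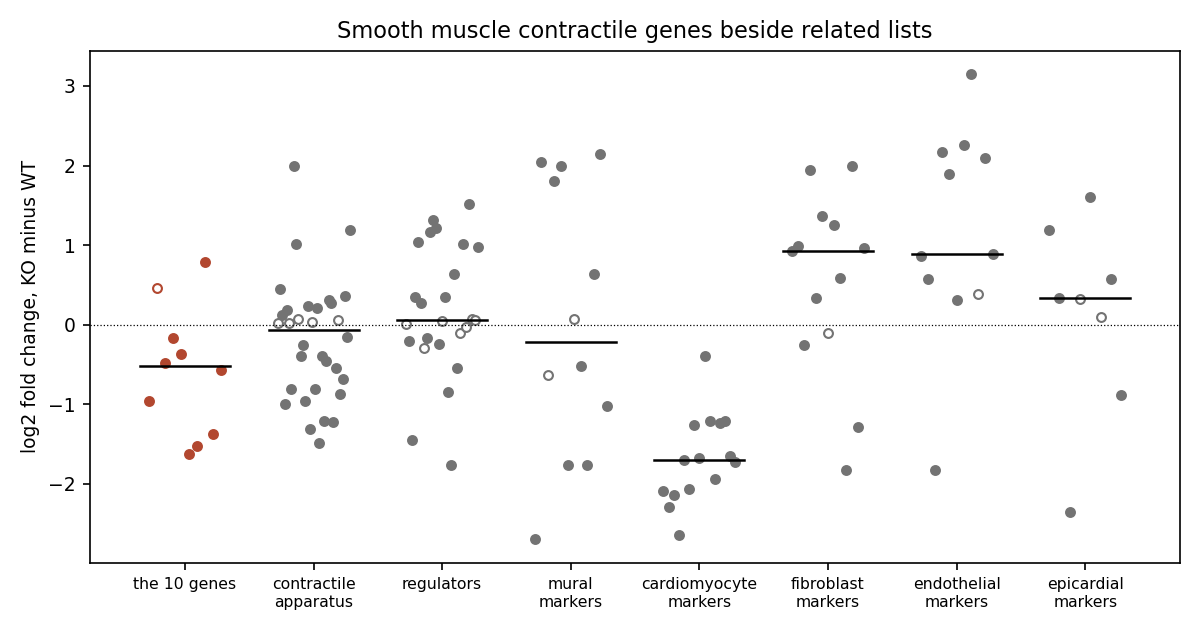
Log2 fold change, KO minus WT, of the tested genes in the group and in related lists; each point is a gene, open points did not pass and lines are medians. The median is -0.52 for the 10 genes and -1.70 for cardiomyocyte markers, and mural markers spread from -2.70 (ABCC9, from few reads) to 2.14.

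The genes nearest in pattern were found by Euclidean distance between log2 CPM profiles centred over the 6 samples, among 10502 named genes with a mean of at least 10 CPM. For ACTA2 they were REEP1, an endoplasmic reticulum shaping protein (-0.93, distance 0.0936), and HSPB7, a small heat shock protein of heart (-0.96, distance 0.0974), while the nearest of the other 9 members, TAGLN, was at 0.512. For LMOD1 they were HRC, a calcium-binding protein of the sarcoplasmic reticulum (-1.56, distance 0.127), and ASB2, a ubiquitin ligase subunit of muscle (-1.55, distance 0.128), ahead of MYH11 at 0.272. For CNN1 they were the ATP synthase gene ATP5F1B (-0.20, distance 0.0301) and PPP1R7, a phosphatase regulator (-0.18, distance 0.0396), ahead of CNN2 at 0.261; the call of PPP1R7 ended in 4 of the 6 fits with a replicate left out and with DESeq2. With 2 groups of 3, such distances mostly reflect the size of the change between KO and WT.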

How the data were processed

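mRNA was selected with oligo-dT, copied with random primers and amplified by PCR, per the labels' protocols. The authors deposited, for each sample, an estimated count per gene (10.9 to 12.0% of positive values were exactly whole as deposited, with no tolerance) and an expression value whose unit the header does not name. This value was taken as FPKM that the authors computed per kilobase of transcript and library total before they deposited it, a reading from the values themselves, since the length implied by count, total and value had a coefficient of variation under 2% over the samples in 40.1% of 12043 genes with at least 100 counts. The submitters' processing notes list hg38 with no role. Not given in the sources used here: aligner, counter, annotation and strand.

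Estimated counts were rounded, filtered with filterByExpr (minimum count 10), scaled by TMM and tested for genotype with edgeR 4.0.16 (robust quasi-likelihood, R 4.3.3), which was tested on simulated data. Standard errors derive from the F statistic. Alternatives were RLE and total scaling, DESeq2 1.42.0, limma 3.58.1 on log2(FPKM + 1) or + 0.1, other filters, unrounded counts, a replicate block and each replicate left out. Unnamed gene models took 12.9 to 13.3% of counts in KO samples and 14.2 to 14.9% in WT samples and stayed in the fit. Counts of replicate pairs gave a chi-square of 3.37 to 6.81 per degree of freedom. Since these counts are estimates, that cannot settle whether a pair repeats 1 library. A count of 3 stands for 0.142 CPM.

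Members and lists were chosen with earlier results of these data known. The named-gene rule took all 10 members, all detected family relatives, SRF, MYOCD, MRTFA, MRTFB and KLF4, the 2 nearest patterns of ACTA2, CNN1 and LMOD1, and up to 3 of the largest rises and falls at a mean of at least 1 CPM in the contractile, regulator and marker lists. The endothelial and epicardial lists are given by counts and sums, apart from LRRN4 and the untested CLDN5. 1 gene that this rule names is not reported here. Antisense partners were named from GENCODE.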

Additional observations from a re-analysis of the deposited data

How the results depend on the processing

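The falls of ACTA2, TAGLN, CNN2, CALD1, LMOD1, SYNPO2 and MYH11 and the rise of SMTN passed in all 16 alternatives. ACTG2 gave 0.485 with library totals, 0.48 with the mean CPM filter, 0.474 with named genes, 0.456 with the replicate block, and 0.367 and 0.466 on log2(FPKM + 1) and log2(FPKM + 0.1), each past the threshold, so that 2 members rose in those 6 fits; leaving out 1 replicate gave 0.301 to 0.599 and 1 to 2 risers. CNN1 gave -0.222 to -0.125 with 1 replicate left out. Of the regulators, 4 fell on FPKM in place of 7. SRF, which did not pass, gave -0.0571 to 0.000645 with 1 replicate left out, turning sign without KO replicate 2, and turned sign on log2(FPKM + 1) (0.0179) and log2(FPKM + 0.1) (0.0183). The cause was not tested. Over all genes, 8182 were called on log2(FPKM + 0.1) and 9596 with DESeq2, in place of 11151. Deviations from the group mean correlated at only -0.0135 to 0.0225 between same-numbered KO and WT samples, so the numbers were not taken as pairs. The replicate block called 10702 genes, and in these deviations not every sample correlated best with its own number. The members held at least 65 counts in every sample, the fewest for ACTG2 in WT replicate 1, and depth limits ACTG2 and MYH11 the most.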
